A study of Drosophila melanogaster with 88 samples.

Results

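The genes described here are 8 fly genes of metal handling: the metallothioneins MtnA, MtnB, MtnC, MtnD and MtnE, the transcription factor MTF-1, the copper importer Ctr1B and the zinc exporter ZnT35C. They were chosen by symbol in the male count table, and their gene identifiers gave the same 8 rows in the tables of female heads and female guts. They are 8 of 17830 gene entries of the male table and 8 of 17421 entries of the female tables. The study has 88 bulk RNA libraries in 22 groups of 4, made by sequencing the 3′ ends of polyadenylated RNA from the fruit fly Drosophila melanogaster. Male heads of genotype VAPWT (WT) or VAPP58S (P58S) were taken at days 5, 15 and 20, and female heads and guts of both genotypes at days 5 and 20. VAP is the fly counterpart of VAPB, and a proline-to-serine change in VAPB causes a familial form of amyotrophic lateral sclerosis. In a further set of male heads at days 5 and 15, all flies carried VAPP58S and the glial driver Repo. They had the driver alone (VAPP58SRepo), a knockdown of kay (KayKD), wild-type kay overexpression (KayWT) or an arm labelled KaySCR. The gene kay encodes Kayak, the fly Fos transcription factor. The design text calls KaySCR an overexpression without saying what the construct is. A Repo driver acts in glia, while the RNA came from whole heads, and no library of the kay set carried VAPWT.

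Metallothioneins are small cysteine-rich proteins that bind copper, zinc and cadmium and keep free metal ions low. In flies they are switched on by MTF-1, a zinc finger protein that binds metal response elements in their promoters when metal is in excess. MTF-1 also drives Ctr1B, which brings copper into cells, when copper is scarce, and ZnT35C, which moves zinc out of the cytoplasm, under zinc load. The fly midgut is a main site of metal uptake and storage, and its copper cells are named for the copper they accumulate.

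In the genome build dm6 4 of the metallothionein genes lie near one another on chromosome arm 3R. MtnC spans 20360308 to 20360634 on the plus strand and MtnB 20503102 to 20503746 on the minus strand, with 142 kb between them. MtnE (20534021 to 20534704, minus strand) and MtnD (20534962 to 20535301, plus strand) are divergent neighbours only 0.258 kb apart. MtnA lies elsewhere on 3R at 9783407 to 9784370 on the minus strand, and Ctr1B at 8317612 to 8319205 on the plus strand. MTF-1 spans 9430312 to 9439490 of 3L on the plus strand, and ZnT35C 15228728 to 15247714 of 2L on the minus strand.

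Reads on genes came to 2.48 to 16.5 M per library in the 24 male heads of the genotype set, 1.21 to 15.0 M in the 32 heads of the kay set, 0.201 to 6.82 M in the 16 female heads and 0.937 to 9.46 M in the 16 guts. Levels are counts per 1000000 reads on genes (CPM), which with 3′ tags do not grow with gene length. A count of 0 allows up to 0.182 to 1.21, 0.2 to 2.49, 0.44 to 15.0 and 0.317 to 3.2 CPM in those tables. These limits cover counting error only. Replicates 2 and 4 of the WT female heads at day 5 held under 0.5 M reads each. Nothing in the labels ties the replicates to separate flies, so p-values cover only a spread between libraries that may be technical. In whole tissue, fewer cells of a type and less RNA per cell cannot be told apart. Guts carried their own markers, with a summed enterocyte marker level of 66800 to 95000 CPM. Heads also held RNA of enterocyte marker genes, at 218 to 3170 CPM in the male genotype set and 42.6 to 3840 CPM in the kay set. Kayak RNA itself was 207 CPM in driver controls and 197 CPM in KayKD heads at day 5 (means of 4), a difference of -0.059 on the log2 scale (edgeR adjusted p = 0.833). In KayWT heads kay differed from the driver by 0.14 at day 5 (edgeR adjusted p = 0.556) and 0.019 at day 15 (edgeR adjusted p = 0.98). KaySCR was the arm called higher in kay, by 0.49 at day 5 (edgeR adjusted p = 0.014), with 0.11 at day 15 (edgeR adjusted p = 0.937). KayKD at day 15 gave -0.05 (edgeR adjusted p = 0.916). Whole-head 3′ tags thus do not check what the KayKD and KayWT labels say of glia, and arms are named here by their labels.

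MtnA was the most abundant of the 8 genes in every table. Its mean level was 1260 CPM in the male genotype set, 461 CPM in the kay set, 1360 CPM in female heads and 3660 CPM in guts, which ranked it 26 among 12770 genes read in guts. Heads and guts were normalized in tables of their own, and levels were not tested across them. In guts MtnE followed with a mean of 637 CPM, MtnD with 210 CPM, MtnC with 107 CPM, Ctr1B with 104 CPM, MtnB with 78.7 CPM, MTF-1 with 54.9 CPM and ZnT35C with 42.4 CPM. The gut mean of MtnC covers a group of libraries near 0 and another above 100 CPM. In the male genotype heads every gene other than MtnA stayed low. MTF-1 ranged from 8.86 to 21.8 CPM, Ctr1B from 8.54 to 20.8 CPM, MtnE from 4.69 to 39.9 CPM, MtnD from 2.27 to 27.2 CPM and MtnB from 0 to 6.71 CPM. ZnT35C lay between 0 and 4.06 CPM, was at 0 in 9 of 24 libraries and was too low to be tested in that table.

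**Figure D1:**
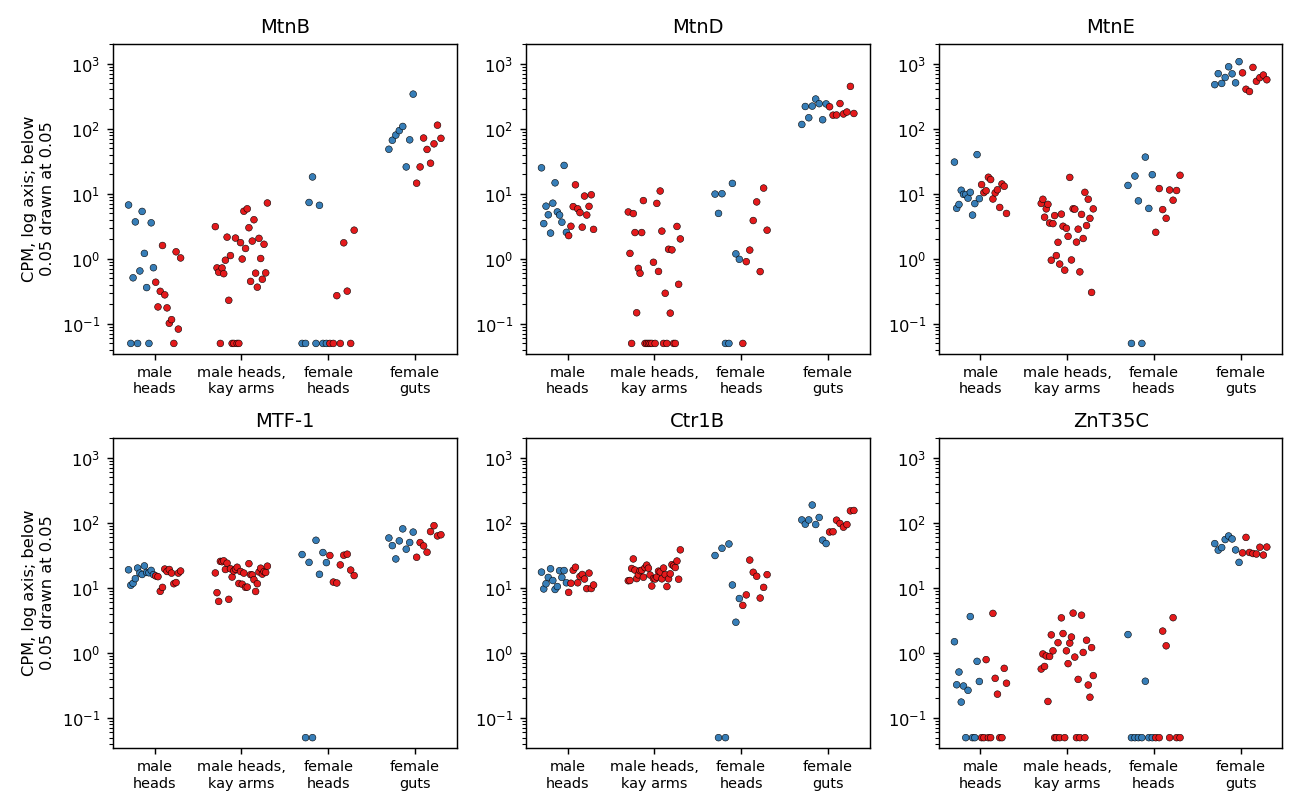
Levels of MtnB, MtnD, MtnE, MTF-1, Ctr1B and ZnT35C in each library, in CPM on a log axis, by table. Each point is 1 library, blue for WT and red for P58S (kay arms included), and values below 0.05 CPM are drawn at 0.05. MtnD and MtnE stand at 116 CPM or more in every gut library, and at 39.9 CPM or less in the male genotype heads.

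Over 33 comparisons the members gave 256 tests, of which 14 were called, all for MtnA or MtnC. A call here is a Benjamini-Hochberg adjusted p under 0.05 over all genes tested in that comparison. MtnC was lower in P58S flies without the Repo driver than in WT, with the clearest separation in guts. In the kay set, all P58S, its mean was 19.0 CPM, below MtnA and above the other metallothioneins. Whether the WT and P58S stocks differ in more than VAP was not tested. MtnA changed with age in WT male heads and between the kay arms.

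In WT guts at day 5 MtnC measured 125, 164, 146 and 128 CPM. In P58S guts at day 5 it measured 0, 0.205, 0.468 and 0 CPM. At day 20 WT guts held 224, 232, 486 and 196 CPM, and P58S guts 0.622, 0.597, 4.27 and 0.974 CPM. Every WT gut was thus above 100 CPM and every P58S gut under 5 CPM, at both ages. The group means were 141 ± 18.2 against 0.168 ± 0.222 CPM at day 5 and 285 ± 135 against 1.62 ± 1.78 CPM at day 20 (SD, n = 4 each). Summed over the 4 libraries, 2141 WT reads stood against 4 P58S reads at day 5. The ratio of the levels was 842, with a 95% interval of 329 to 3090 from the exact binomial (Clopper-Pearson) limits of the counts. Such intervals, here and for the other read ratios, cover counting error only and not the spread between libraries. Leaving out 1 WT library gave ratios of 809 to 879. At day 20 the sums were 6502 and 17 reads, a ratio of 324 (202 to 557). On the log2(CPM + 1) scale MtnC fell by 6.93 in P58S at day 5 (SE 0.42, limma adjusted p = 3.77e-10) and by 6.87 at day 20 (SE 0.42, limma adjusted p = 4.55e-10). It had the smallest p and the largest fall among the 9036 genes tested at each age. It was the only member called in either gut comparison, where 0.133% (day 5) and 0.365% (day 20) of all genes were called. Groups did not overlap for 3.82% and 3.65% of all genes. All 13 alternative settings at each age kept the call, with log2 changes from -9.53 to -6.85 at day 5 and from -8.1 to -6.58 at day 20. The change of the P58S difference between the ages was 0.063 (SE 0.59, limma adjusted p = 0.999).

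MtnC was 1 of 4 genes, 0.0443% of the 9036 tested in guts, that were called lower in P58S at both ages. The others were to (takeout), CG6295 and CG6283. Among genes within 200 kb of MtnC, a window chosen after the values of MtnC were seen, 0 of 15 tested were called by limma at either gut age. With 0.133% and 0.365% of all genes called, this count says little of the region. Their median log2 change was 0.00029 at day 5 and -0.25 at day 20. The lowest was that of MtnB, at -1.02 and -0.55. MtnB, on the same arm 142 kb from MtnC, was read in every P58S gut, at 14.5 to 113 CPM. The summed enterocyte markers were 66800 to 90300 CPM in WT guts and 78500 to 95000 CPM in P58S guts. Copper cell markers summed to 92.2 to 206 CPM in WT and 81.5 to 132 CPM in P58S guts. Fat body markers were 3200 to 4280 CPM in WT and 1540 to 3240 CPM in P58S guts at day 5, and 1520 to 3790 and 1490 to 2990 CPM at day 20. In guts this sum was mostly the yolk protein gene Yp1, at 1210 to 3790 CPM, beside apolpp at 153 to 390 CPM. The sum is thus not a measure of fat body alone. Guts also held ovary marker RNA, at 107 to 2130 CPM in sum. With the mean of each group removed, log2 MtnC correlated with fat body markers at r = 0.74 (Spearman rho 0.5) over the 16 guts. With enterocyte markers r was -0.14. The part of these markers in the MtnC difference was not tested.

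**Figure D2:**
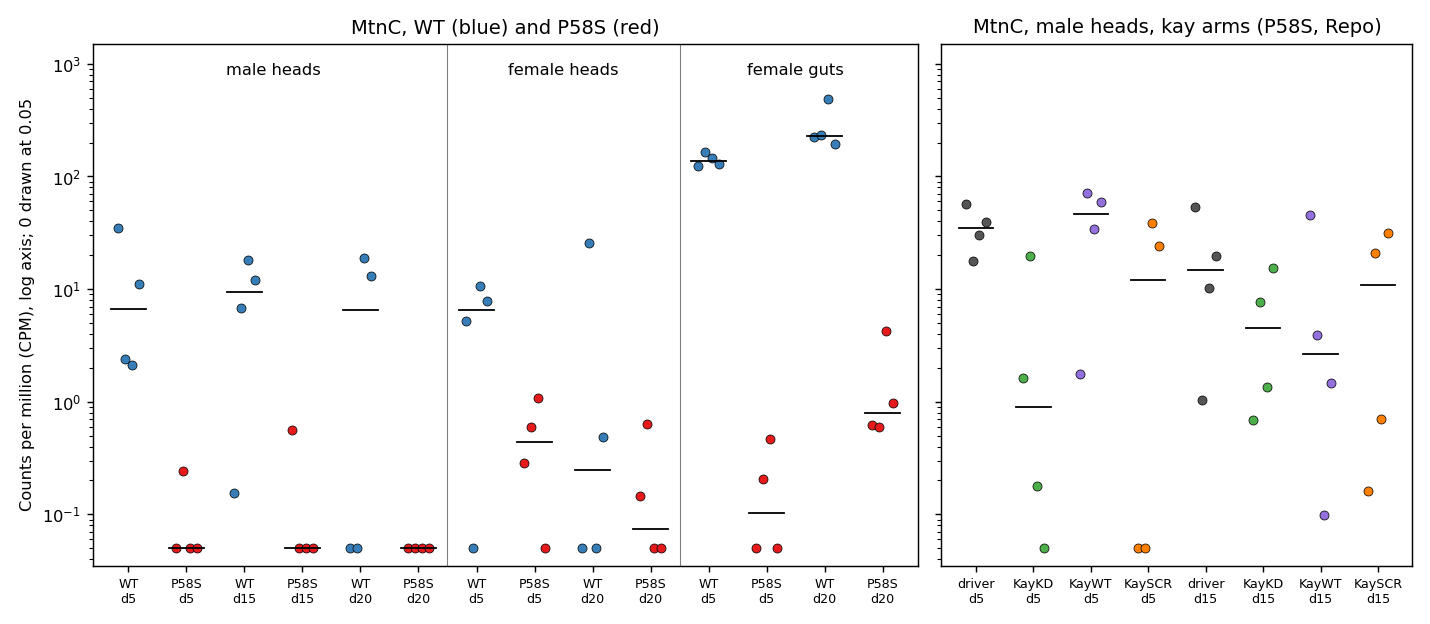
MtnC level in each of the 88 libraries, in CPM on a log axis, with 0 drawn at 0.05. Points are libraries, coloured by genotype (WT blue, P58S red) or kay arm, and black lines are group medians. WT guts lie at 125 to 486 CPM and P58S guts at 0 to 4.27 CPM, and the heads of the kay set, all P58S, reach 70.7 CPM.

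Male heads gave the same direction at much lower levels. At day 5 WT heads held 34.7, 2.39, 2.14 and 11 CPM of MtnC, and P58S heads 0, 0.243, 0 and 0 CPM. At day 15 the WT values were 0.155, 6.82, 18.3 and 12.1 CPM and the P58S values 0.558, 0, 0 and 0 CPM. At day 20 the WT heads held 0, 0, 18.8 and 13.1 CPM, while all 4 P58S heads were at 0. WT heads thus varied widely, and 9 of 12 WT heads but 0 of 12 P58S heads reached 1 CPM. The groups did not overlap at day 5, as for 5.9% of genes tested, and overlapped at days 15 and 20. Summed reads were 261 in WT against 4 in P58S at day 5, a level ratio of 73.7 (95% counting interval 28.5 to 273), and 189 against 2 at day 15, a ratio of 161 (44.1 to 1340). At day 20 there were 162 reads against 0. With the P58S group set at 3 reads, the ratio was 80.4, and the lower 95% limit of the counts was 64.6-fold. WT replicate 3 held 126 of those 162 reads, and without it the ratio to 3 P58S reads was 27.0. At day 15 the ratio was 72.2 without WT replicate 3.

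MtnC was the only member called at day 5, with a log2 change of -6.62 (SE 1.57, edgeR quasi-likelihood adjusted p = 0.0248), where 1.96% of 9741 genes were called. It was also the only member called at day 20 (adjusted p = 0.0418 by the same test), where 1.76% were called. At day 15, where 1.02% of genes were called, edgeR called 0 members and DESeq2 0, and 3 had an unadjusted p under 0.05. MtnC then had an adjusted p of 0.0549, with a log2 change of -6.8 (SE 1.7). Both calls were lost when single libraries were left out. The day 5 adjusted p was 0.0512 to 0.0665 without any 1 of WT replicate 1 or 4 or P58S replicates 1 to 4, and the day 20 adjusted p was 0.0771 to 0.173 without WT replicate 3 or 4 or any 1 P58S replicate. Over the 12 alternatives at each age the log2 change stayed between -9.37 and -5.51 at day 5 and between -9.3 and -7.86 at day 20. At day 5, neuronal markers were 3090 to 3450 CPM in WT and 3520 to 3710 CPM in P58S heads, and photoreceptor markers 18400 to 20600 and 23400 to 32100 CPM. Their part in the MtnC difference was not tested. Of the genes within 200 kb of MtnC, 0 of 17 tested were called by edgeR at any of the 3 ages. With so few of all genes called, this count says little of the region. The lowest change among them was that of MtnB, at -2.29 at day 5, -3.48 at day 15 and -1.02 at day 20.

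In female heads MtnC measured 5.2, 0, 10.7 and 7.77 CPM in WT and 0.284, 0.602, 1.08 and 0 CPM in P58S at day 5. By day 20 the values were 0, 25.4, 0 and 0.491 CPM in WT and 0.147, 0.635, 0 and 0 CPM in P58S. The genotypes overlapped at both ages, and the WT mean at day 20 rested on replicate 2. The P58S differences of -1.8 at day 5 (SE 0.92, limma adjusted p = 0.355) and -1.1 at day 20 (SE 0.92, limma adjusted p = 1.0) were not called. Limma called 0 members at either age, where 0.0519% and 0.0311% of all genes were called. edgeR on reads recovered from the table also called 0 at each age, and 0 and 1 members had an unadjusted p under 0.05. The median log2 change of all genes was 0.65 at day 5 and 0.16 at day 20, against which these values stand. As summed reads, 38 in WT stood against 7 in P58S at day 5, a ratio of 12.9 (5.69 to 34.2), and 70 against 3 at day 20, a ratio of 56.3 (18.5 to 279). Without WT replicate 2 the day 20 ratio was 1.26.

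The heads of the kay set were all P58S, yet MtnC was read in them at up to 70.7 CPM. Driver controls held 57.5, 17.9, 30.4 and 39.1 CPM at day 5 and 53.1, 1.03, 10.2 and 19.6 CPM at day 15. Plain P58S heads of the same ages held 0 to 0.558 CPM. The 8 driver heads therefore lay wholly above the 8 plain P58S heads of those ages. How many of all genes separate these 2 sets of heads was not counted. The driver, the genetic background it brought and the experiment cannot be told apart, and the levels of the sets were not tested against each other. KayKD heads held 1.61, 19.7, 0.179 and 0 CPM at day 5 and 0.693, 7.65, 1.34 and 15.3 CPM at day 15. KayWT heads ranged from 1.75 to 70.7 CPM at day 5 and from 0.0982 to 45.3 CPM at day 15, and KaySCR heads from 0 to 38.8 and from 0.161 to 31.5 CPM. No arm differed from the driver in the test. The largest difference was for KayKD at day 5, with a log2 change of -2.56 (SE 1.4, edgeR adjusted p = 0.33).

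Within the kay set MtnC followed the amount of enterocyte marker RNA in the head. With group means removed, the log2 levels correlated at r = 0.87 over the 32 libraries (Spearman rho 0.9, permutation adjusted p = 5e-05 over 5 relations). The raw p of 1e-05 is the smallest that 100000 permutations within groups can give, and r was 0.88 without the 2 libraries farthest from the median. These relations were chosen after the values were seen. The same marker sum gave r = 0.66 for MtnD (permutation adjusted p = 0.000325), 0.55 for MtnE (0.0153), 0.42 for MtnB (0.0526) and 0.092 for MtnA (0.671), each over 32 libraries. Without a permutation test, r was 0.46 for Ctr1B, 0.43 for MTF-1 and 0.014 for ZnT35C. In the kay set the relation was thus not limited to metallothioneins. In the 24 male genotype heads r was 0.75 for MtnE, 0.63 for MtnC, 0.58 for MtnB, 0.57 for MtnD and -0.4 for MtnA. There it was 0.058 for MTF-1 and 0.024 for Ctr1B. In the 16 female heads r was 0.59 for MtnE, 0.58 for MtnA, 0.47 for MtnC, 0.39 for MtnB and 0.11 for MtnD. MtnA and MtnD thus differed there from the male sets. The marker sum was 232 to 3520 CPM (median 1580) in driver controls, 85.2 to 898 CPM (348) in KayKD, 42.6 to 3840 CPM (1140) in KayWT and 52.9 to 2910 CPM (641) in KaySCR heads. KayKD, with the lowest median MtnC level, thus also had the lowest median marker sum.

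In the genotype set the marker sums of WT and P58S heads overlapped. WT male heads held 218 to 3170 CPM of enterocyte markers (median 1370) and P58S heads 255 to 2870 CPM (median 984). Per 1000 CPM of enterocyte markers, MtnC was 0 to 16.9 CPM in WT heads (median 5.39) and 0 to 0.533 CPM in P58S heads (median 0). In driver heads the same quotient was 4.45 to 85.1 CPM (median 13.1). In guts it was 1.62 to 6.57 CPM (median 2.12) in WT and 0 to 0.0519 CPM (median 0.00654) in P58S. The marker list in heads was led by digestive enzyme genes. The markers LManVI and nub were low there, with LManVI at 0 in 17 of 24 male heads and nub at a median of 2.4 CPM.

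**Figure D3:**
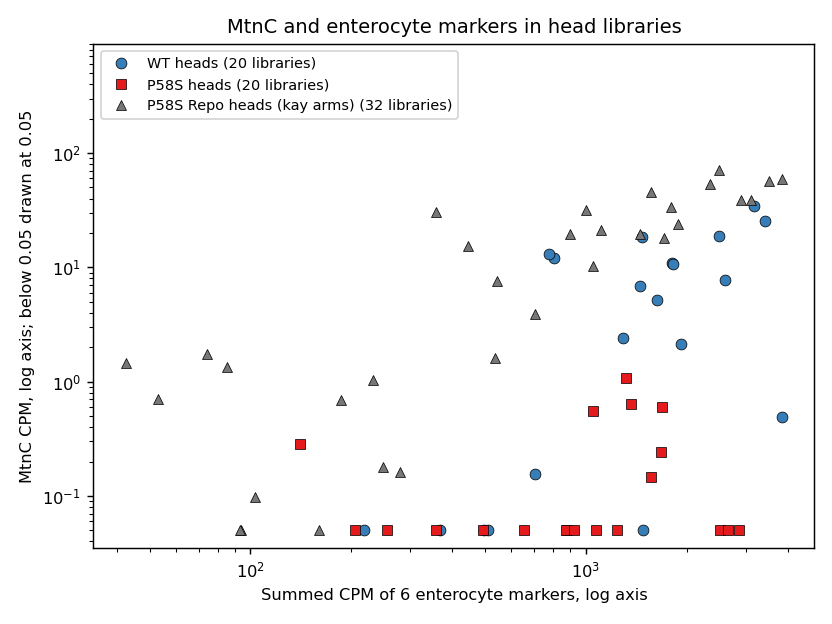
MtnC level against the summed level of the enterocyte markers in each head library, both in CPM on log axes, with MtnC values of 0 drawn at the lower edge. Circles are the 20 WT heads, squares the 20 P58S heads and triangles the 32 heads of the kay arms. P58S squares stay low at every marker level, and the triangles rise with it (r = 0.87 with group means removed).

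MtnA, the main metallothionein, rose with age in WT male heads. The 4 WT heads measured 959, 994, 897 and 990 CPM at day 5, 1510, 1440, 1680 and 1670 CPM at day 15 and 1610, 1740, 1640 and 1720 CPM at day 20. All later libraries lay above all day 5 libraries. The log2 rise was 0.53 at day 15 (SE 0.13, edgeR adjusted p = 0.00805) and 0.72 at day 20 (SE 0.13, edgeR adjusted p = 0.000524), and all 12 alternatives kept each call. Photoreceptor markers summed to 18400 to 20600 CPM in WT heads at day 5, 24100 to 32100 CPM at day 15 and 20500 to 28100 CPM at day 20, so they were also higher at day 15 without overlap. Their part in the MtnA rise was not tested. MtnA was the only member called in either comparison, where 12.4% and 10.6% of all genes were called and 21.2% and 15.7% did not overlap.

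P58S male heads measured 757, 753, 1410 and 719 CPM at day 5, 1310, 1280, 1210 and 1150 CPM at day 15 and 1180, 1130, 1160 and 1310 CPM at day 20. Replicate 3 of day 5 stood apart. That library also had the highest glial marker sum of the 24, 8860 CPM against a group median of 5340 CPM, and a fat body marker sum of 8230 CPM against a group median of 4920 CPM. The glial sum was mostly 1 gene, Gs2 (2890 to 8490 CPM over the 24 heads), beside Eaat1 at 382 CPM or less. With all libraries the P58S rise was 0.3 at day 15 (SE 0.13, edgeR adjusted p = 0.132) and 0.37 at day 20 (SE 0.13, edgeR adjusted p = 0.0509). edgeR called 0 members in these comparisons, where 13.6% and 16.0% of all genes were called, with 1 member at an unadjusted p under 0.05 in each, and DESeq2 called 0 and 1. Without that library the rises were 0.56 (edgeR adjusted p = 6.12e-06) and 0.64 (1.15e-06). Over the 12 alternatives the adjusted p ran from 6.12e-06 to 0.344 at day 15 and from 1.15e-06 to 0.16 at day 20.

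Set against WT, P58S heads were lower in MtnA in every library at days 15 and 20, as for 7.28% and 8.09% of genes without overlap. The log2 differences were -0.33 at day 15 (SE 0.13, edgeR adjusted p = 0.366) and -0.45 at day 20 (SE 0.13, edgeR adjusted p = 0.0751), so neither was called. DESeq2 called the day 20 difference (adjusted p = 0.0296, over a range of 0.0296 to 0.182 in 12 alternatives). At day 5 the difference was -0.1 (SE 0.13, edgeR adjusted p = 0.753) and, without P58S replicate 3, -0.37 (adjusted p = 0.00416, over a range of 0.00416 to 0.98). The change of the genotype difference from day 5 to day 20 was -0.35 (SE 0.18, edgeR adjusted p = 0.513). For that change edgeR called 0 members, DESeq2 0, and 0 had an unadjusted p under 0.05, with 0.205% of all genes called.

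In the kay set MtnA was higher in the KayKD arm and lower in the KayWT and KaySCR arms than in driver controls. At day 5 the driver controls measured 541, 374, 383 and 419 CPM, KayKD heads 634, 757, 745 and 649 CPM, KayWT heads 247, 268, 261 and 288 CPM and KaySCR heads 202, 162, 233 and 272 CPM. At day 15 the driver controls measured 503, 692, 589 and 571 CPM, KayKD heads 740, 917, 804 and 1030 CPM, KayWT heads 322, 284, 352 and 407 CPM and KaySCR heads 296, 223, 319 and 275 CPM. At each age every KayKD library lay above every driver library, and every KayWT and KaySCR library lay below. The 3 arms share the driver controls, so their differences are not independent.

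KayKD against driver was 0.71 at day 5 (SE 0.15, edgeR adjusted p = 0.00427) and 0.68 at day 15 (SE 0.15, edgeR adjusted p = 0.0113). The day 15 call was lost without driver replicate 1 (0.61, adjusted p = 0.0724) and without KayKD replicate 4 (0.56, adjusted p = 0.0787), over a range of 0.000403 to 0.0787. KayWT against driver was -0.63 at day 5 (SE 0.15, edgeR adjusted p = 0.00879) and -0.72 at day 15 (SE 0.15, edgeR adjusted p = 0.00503). KaySCR against driver was -1.0 at day 5 (SE 0.15, edgeR adjusted p = 8.65e-05) and -1.04 at day 15 (SE 0.15, edgeR adjusted p = 4.29e-05). MtnA was the only one of the 8 genes called in each of these 6 comparisons. Of all genes 3.58% (day 5) and 1.25% (day 15) were called for KayKD, 5.59% and 1.48% for KayWT, and 2.6% and 0.868% for KaySCR. Groups did not overlap for 6.52% and 8.56%, 10.0% and 9.43%, and 6.5% and 8.26% of genes in the same order. Neither of the KayWT and KaySCR differences lost its call under any of the 12 alternatives at either age.

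KayKD against KayWT uses no driver library. Its log2 difference was 1.34 at day 5 (SE 0.15, edgeR adjusted p = 5.98e-07) and 1.4 at day 15 (SE 0.15, edgeR adjusted p = 1.67e-07), and MtnA ranked 4 by p among 9796 genes at both ages. It was again the only member called, where 3.24% and 2.31% of all genes were called, and 11.4% and 8.4% did not overlap. The arm differences did not change detectably with age. The change from day 5 to day 15 was -0.027 for KayKD (SE 0.21, edgeR adjusted p = 0.983), -0.093 for KayWT (adjusted p = 0.97) and -0.049 for KaySCR (adjusted p = 1.0). In these 3 tests of change edgeR called 0 members, DESeq2 0, and 0 had an unadjusted p under 0.05, with 0.153%, 0.112% and 0.0612% of all genes called.

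Cell type markers were summed beside these values. Glial markers were 4810 to 6610 CPM in driver, 4050 to 6290 CPM in KayKD, 4620 to 7330 CPM in KayWT and 4590 to 7060 CPM in KaySCR heads at day 5. This sum was mostly Gs2, at 3410 to 6970 CPM over the kay set, beside Eaat1 at 433 CPM or less. Fat body markers were 5320 to 7490 CPM in driver heads, 8570 to 9340 CPM in KayKD, 6690 to 7990 CPM in KayWT and 7190 to 8030 CPM in KaySCR heads at day 5. At day 15 the fat body sums were 7720 to 8060, 4840 to 8400, 5980 to 8840 and 7080 to 10400 CPM. KayKD thus stood above the driver controls in fat body markers at day 5 and overlapped them at day 15. Neuronal markers were 3800 to 5280 CPM in driver and 2880 to 3420 CPM in KayWT heads at day 5. At day 15 they were 3970 to 4120 CPM in driver, 3120 to 3710 CPM in KayWT and 3560 to 3860 CPM in KaySCR heads, again without overlap with the driver. Photoreceptor markers at day 15 were 17600 to 19700 CPM in driver, 20900 to 37200 CPM in KayKD and 21000 to 23200 CPM in KaySCR heads, higher than the driver in both arms while MtnA was higher in the first and lower in the second. The part of these markers in the MtnA differences was not tested.

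**Figure D4:**
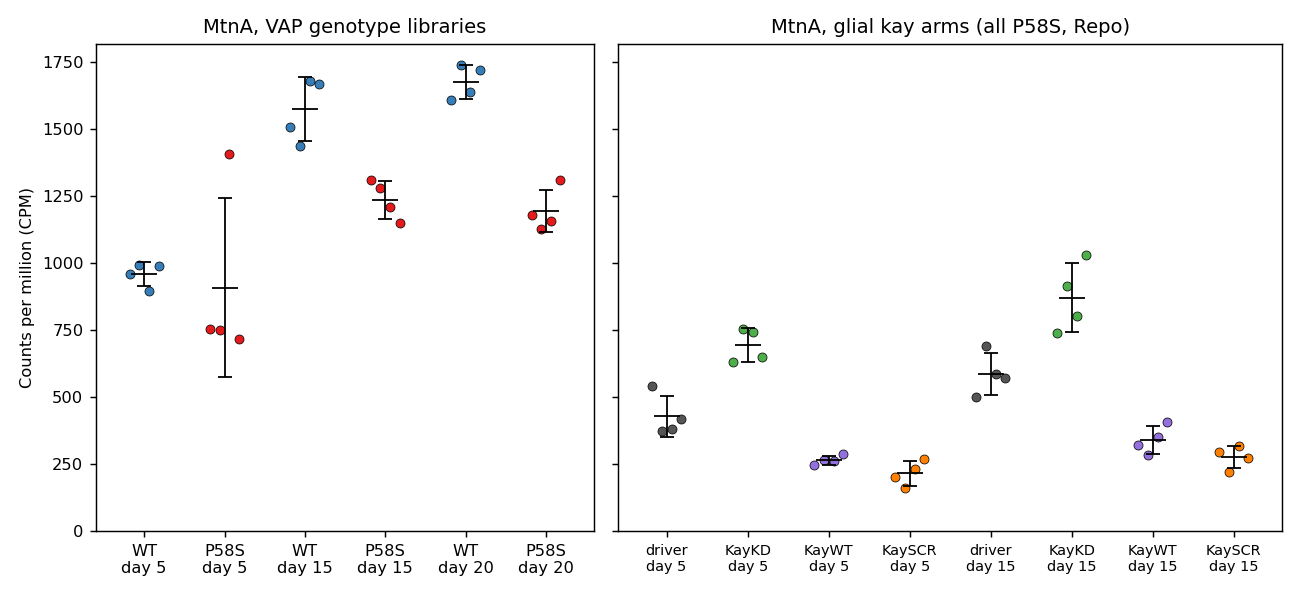
MtnA level in each male head library, in CPM on a linear axis from 0, for the genotype set (WT blue, P58S red) and the kay set (driver grey, KayKD green, KayWT purple, KaySCR orange). Points are libraries and bars show the mean ± SD of 4 libraries. WT heads rise from 897 to 994 CPM at day 5 to 1610 to 1740 CPM at day 20, and KayKD heads stand above the driver controls at both ages.

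Ageing within each kay arm gave smaller MtnA differences from day 5 to day 15. They were 0.37 in driver (SE 0.15, edgeR adjusted p = 0.142), 0.35 in KayKD (adjusted p = 0.182), 0.28 in KayWT (adjusted p = 0.531) and 0.33 in KaySCR heads (adjusted p = 0.413). In driver heads the difference was 0.5 without day 5 replicate 1 (adjusted p = 0.0369, over a range of 0.0369 to 0.385). edgeR called 0 members in each of the 4 arms, and DESeq2 0, while 2, 1, 1 and 1 members had an unadjusted p under 0.05. Of all genes 6.07%, 5.74%, 1.59% and 1.67% were called in the same order. Driver heads, at 374 to 692 CPM, lay below plain P58S heads of the same ages at 719 to 1410 CPM, a difference between experiments that was not tested. The share of all genes that separate in this way was not counted.

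In female heads MtnA was at 974, 1400, 1080 and 1890 CPM in WT and 865, 1170, 1080 and 970 CPM in P58S at day 5. Day 20 values were 1700, 2010, 1390 and 1880 CPM in WT and 1700, 1130, 1100 and 1370 CPM in P58S. The genotypes overlapped at both ages, with log2 differences of -0.35 (SE 0.19, limma adjusted p = 0.382) and -0.41 (SE 0.19, limma adjusted p = 0.968). From day 5 to day 20 the change was 0.42 in WT (SE 0.19, limma adjusted p = 0.291) and 0.36 in P58S (SE 0.19, limma adjusted p = 1.0), where 0.975% and 0.27% of all genes were called. The median change of all genes in WT was 0.35, close to that of MtnA. Without the 2 shallow WT libraries the WT change was 0.76 (adjusted p = 0.0413), and with each library centred on its median it turned to -0.68 (adjusted p = 0.628). Limma and edgeR on recovered reads called 0 members in either ageing comparison, and 2 in WT and 0 in P58S had an unadjusted p under 0.05.

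In WT guts MtnA was at 2240, 2910, 3020 and 2080 CPM at day 5 and at 5120, 5750, 6770 and 3530 CPM at day 20. Every day 20 library was above every day 5 library, as for 6.03% of genes. The log2 difference of 1.03 (SE 0.23, limma adjusted p = 0.0613) was not called. It was 1.21 without WT replicate 4 of day 20 (adjusted p = 0.0131, over a range of 0.0131 to 0.295). P58S guts held 3350, 2840, 2350 and 2550 CPM at day 5 and 3680, 3180, 6470 and 2760 CPM at day 20, with overlap (0.47, SE 0.23, limma adjusted p = 0.458). MtnC in WT guts was also higher in every day 20 library than in any day 5 library (0.92, SE 0.42, limma adjusted p = 0.458), without a call. In P58S guts MtnC rested on few reads, 0 to 3 a library at day 5 and 3 to 6 at day 20. Summed, these were 4 of 24.7 M reads and 17 of 18.6 M reads. Every day 20 library lay above every day 5 library, as for 8.81% of genes. This difference was not called either (0.98, SE 0.42, limma adjusted p = 0.362). Limma and edgeR on recovered reads called 0 members in both gut ageing comparisons, where 0.21% and 0.299% of all genes were called and 3 and 2 members had an unadjusted p under 0.05. P58S against WT, MtnA was 0.12 at day 5 (SE 0.23, limma adjusted p = 1.0) and -0.44 at day 20 (SE 0.23, limma adjusted p = 0.658).

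The other metallothioneins passed the threshold in no comparison. MtnB, whose protein binds cadmium and copper, measured 6.71, 0, 0.51 and 3.69 CPM in WT and 0.436, 0.182, 0.316 and 1.6 CPM in P58S male heads at day 5, with overlap. Its P58S differences were -2.29 (SE 1.19, edgeR adjusted p = 0.335), -3.48 (SE 1.35, adjusted p = 0.364) and -1.02 (SE 1.22, adjusted p = 0.876) at days 5, 15 and 20. In guts it was 48.2, 66.3, 79.6 and 93.3 CPM in WT and 14.5, 25.8, 71.7 and 47.9 CPM in P58S at day 5, a difference of -1.02 (SE 0.56, limma adjusted p = 1.0). At day 20 the gut values were 108, 25.8, 67.3 and 339 CPM in WT and 29.4, 58.4, 113 and 71 CPM in P58S.

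MtnD was at 116, 219, 147 and 222 CPM in WT and 217, 161, 162 and 243 CPM in P58S guts at day 5. The day 20 values were 285, 242, 137 and 240 CPM in WT and 168, 180, 446 and 171 CPM in P58S guts, with overlap at both ages. MtnE, its divergent neighbour, was at 474, 700, 495 and 611 CPM in WT and 721, 403, 372 and 873 CPM in P58S guts at day 5. At the later age MtnE was at 893, 696, 506 and 1070 CPM in WT and 534, 608, 666 and 564 CPM in P58S guts. Over both ages together, most P58S guts lay within the WT range of MtnB, MtnD and MtnE. At day 5 alone the P58S values of MtnE lay outside the WT range of 474 to 700 CPM, on both sides. MtnB was then at 14.5, 25.8 and 47.9 CPM in P58S replicates 1, 2 and 4, below the lowest WT gut at 48.2 CPM.

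MTF-1, the activator of the metallothionein genes, was at 58.6, 44.7, 27.9 and 52.9 CPM in WT and 29.6, 49.8, 44.3 and 35.4 CPM in P58S guts at day 5. At the later age MTF-1 was at 80.9, 39.4, 49.9 and 72.1 CPM in WT and 73.4, 90.5, 63 and 65.6 CPM in P58S guts. In P58S guts every day 20 library was above every day 5 library, as for 8.81% of genes, with a log2 difference of 0.88 (SE 0.29, limma adjusted p = 0.169). In female heads its WT values at day 5 were 32.6, 0, 24.7 and 0 CPM, the zeros being the 2 shallow libraries. The WT ageing difference there was 2.5 (SE 0.98, limma adjusted p = 0.228), and without WT day 5 replicate 1 it was 3.37 (adjusted p = 0.0471). Without the 2 shallow libraries it was 0.057 (adjusted p = 0.979).

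Ctr1B was at 111, 95.4, 111 and 188 CPM in WT and 72.3, 73.1, 110 and 97.8 CPM in P58S guts at day 5. At the later age Ctr1B was at 94.4, 121, 54.2 and 48.1 CPM in WT and 85.8, 94.1, 153 and 155 CPM in P58S guts. The change from day 5 to day 20 was -0.72 in WT (SE 0.29, limma adjusted p = 0.396), and the P58S difference at day 20 was 0.66 (SE 0.29, limma adjusted p = 0.636). The change of the P58S difference with age was 1.15 (SE 0.41) with an unadjusted p of 0.011 and a limma adjusted p of 0.999. Ctr1B was the 1 member of 8 with an unadjusted p under 0.05 for that change, where limma and edgeR on recovered reads called 0 members and 0% of all genes were called by limma. ZnT35C was at 48, 38.1, 41.7 and 55.4 CPM in WT and 34.6, 59.8, 35.1 and 33.8 CPM in P58S guts at day 5, and at 24.7 to 62.8 and 32 to 42.5 CPM at day 20, with overlap.

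**Figure D5:**
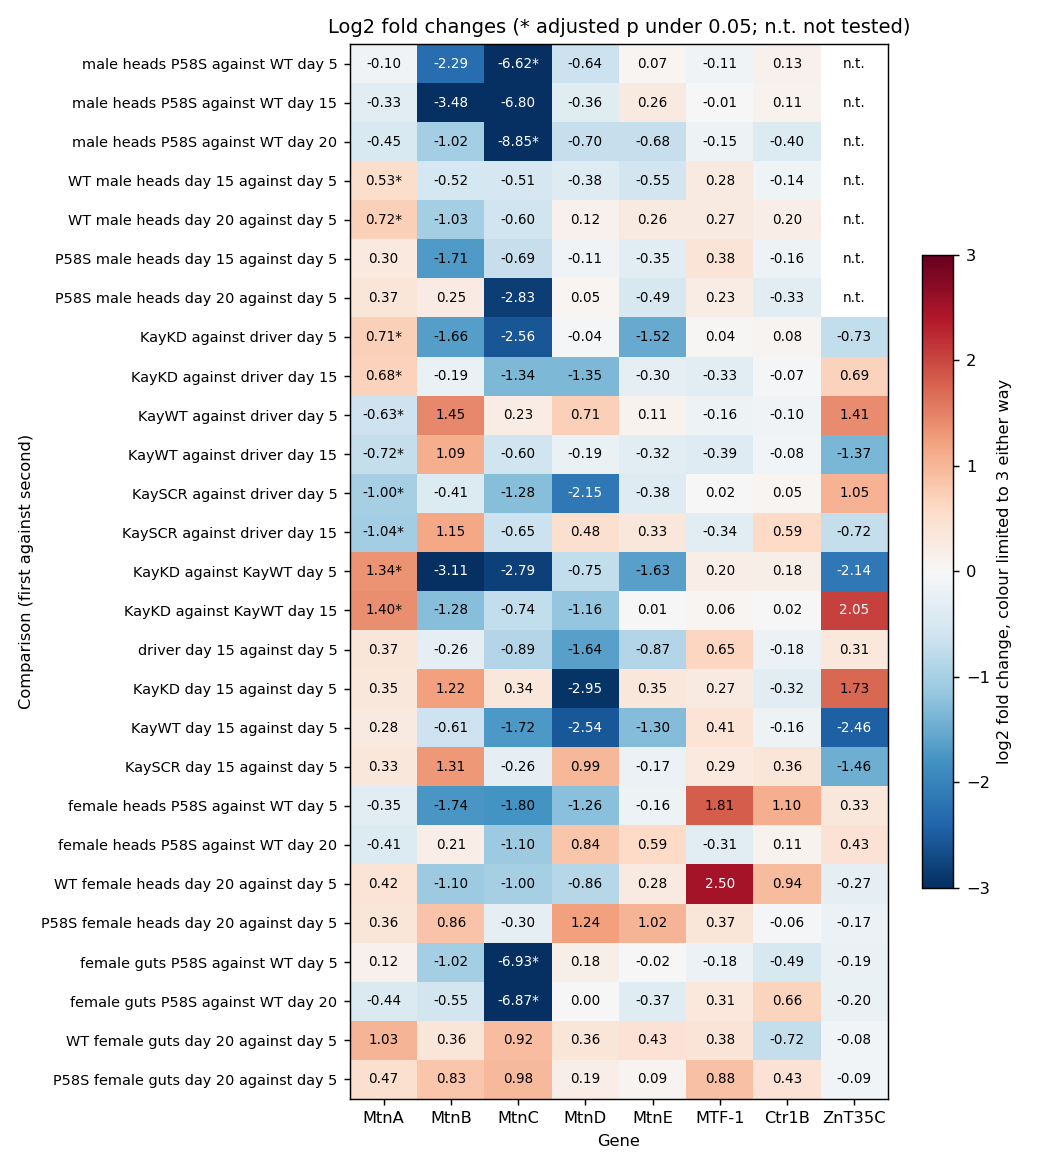
Log2 fold change of each of the 8 genes (columns) in 27 comparisons (rows), as colour, with an asterisk at an adjusted p under 0.05 and n.t. where a gene was not tested. Asterisks stand in the columns of MtnA and MtnC. The strongest falls, of 6.62 to 8.85 on the log2 scale, are those of MtnC in P58S male heads and guts, and the male day 20 value is fitted against a group at 0.

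A wider list of 36 other metal genes was read beside the 8, with 32 or 33 tested per comparison. It holds zinc exporters and importers, copper handling genes and iron handling genes. In guts 0 of 32 were called by limma in any comparison. There 0% to 0.365% of all genes were called, so this count says nothing of the list. In P58S against WT male heads 1 of 32 was called lower at day 5, 0 at day 15 and 1 lower at day 20. A single call of 32 is 3.12%, beside 1.96% of all genes at day 5 and 1.76% at day 20, so the counts say nothing of the list. The first was Irp-1A, an iron regulatory protein, at -0.58 (SE 0.13, edgeR adjusted p = 0.0141), a call lost without P58S replicate 2 (adjusted p = 0.0539). The other was Sod3, the extracellular copper and zinc superoxide dismutase, at 30.5 ± 3.53 CPM in P58S and 47.4 ± 6.25 CPM in WT (SD, n = 4, -0.6, SE 0.13, edgeR adjusted p = 0.0134). That call was lost without any 1 of WT replicates 2 and 4 and P58S replicates 2 and 4 (adjusted p 0.0515 to 0.0699).

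In the kay set Tsf1, a transferrin that carries iron, stood out at day 5. It was at 443 ± 194 CPM in driver controls, 824 ± 30.1 CPM in KayKD, 785 ± 91.3 CPM in KayWT and 916 ± 177 CPM in KaySCR heads (SD, n = 4). The log2 differences were 0.91 (edgeR adjusted p = 0.00387), 0.9 (0.0034) and 1.04 (0.00113), each with an SE of 0.19 and against the same 4 driver libraries. Unlike MtnA, Tsf1 was thus higher in all 3 arms. KayKD at day 5 also had less Fer1HCH, the ferritin heavy chain, at -0.44 (edgeR adjusted p = 0.0202). That call was lost without driver replicate 3 (-0.32, adjusted p = 0.131), KayKD replicate 1 (adjusted p = 0.0575) or KayKD replicate 4 (adjusted p = 0.0662). Fer1HCH was also lower in KayKD than in KayWT at day 5 (-0.51, edgeR adjusted p = 0.00546). It rose from day 5 to day 15 in KayKD (0.5, edgeR adjusted p = 0.00447). All 12 alternatives kept both calls. Zip71B, a zinc importer, was higher in KayKD than in KayWT at day 15 (1.23, edgeR adjusted p = 0.0259). That call was lost without KayKD replicate 2 or 4 or KayWT replicate 1 or 3. Against the driver at day 15, 0 of 33 were called by edgeR in each of the 3 arms. With 0.868% to 1.48% of all genes called there, this count also says nothing of the list. In driver controls Tsf1 was higher at day 15 than at day 5, by 1.24 (edgeR adjusted p = 3.52e-05). There Irp-1B was also higher at day 15 (0.91, edgeR adjusted p = 0.0028) and Sod3 lower (-0.82, edgeR adjusted p = 0.000336). KaySCR heads too had less Sod3 at day 15 than at day 5 (-0.69, edgeR adjusted p = 0.00538). Tsf1 also rose with age in female heads, by 1.52 in WT (limma adjusted p = 0.000641) and 1.4 in P58S (limma adjusted p = 0.00241). Both female calls were lost when each library was centred on its median (0.42, adjusted p = 0.767, and 1.46, adjusted p = 1.0).

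With age, 3 of 32 rose and 2 fell in WT male heads by day 15 (15.6%, against 12.4% of all genes), and 3 rose and 0 fell by day 20 (9.38%, against 10.6%). In P58S heads 1 rose and 3 fell by day 15 (12.5%, against 13.6%), and 1 rose and 1 fell by day 20 (6.25%, against 16.0%). The list was thus called about as often as all genes, or less. Fer1HCH was lower at day 15 in WT (-0.59, edgeR adjusted p = 0.00145) and in P58S (-0.72, edgeR adjusted p = 0.00024). Irp-1B rose in WT heads by 0.62 (edgeR adjusted p = 0.00476) and 0.6 (edgeR adjusted p = 0.00668) at days 15 and 20. Irp-1A fell in WT heads by 0.5 at day 15 (edgeR adjusted p = 0.0124), a call lost without WT day 15 replicate 1. It rose in P58S heads by 0.52 at day 20 (edgeR adjusted p = 0.00647). Sod3 fell in P58S heads by 0.66 (edgeR adjusted p = 0.00119) and by 0.83 (edgeR adjusted p = 9.84e-05). For the change of the genotype difference from day 5 to day 20, edgeR called 0 of 32. Only 0.205% of all genes were called there, so this count says nothing of the list. Whether the genotypes differ in the change from day 5 to day 15 was not tested.

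Genes with patterns most like a member were found by Pearson's r of mean log2 CPM over the 14 male head groups, which come from 2 experiments, among 9523 genes, and by r of the levels over the 16 gut libraries. For MtnA in heads they were stops (r = 0.95), CG11842 (0.94) and Cyp6w1 (0.94), and in guts CG4653 (0.88), Idh (0.88) and Npc2f (0.86). For MtnC in heads they were Cyp6a14 (0.85), CG6283 (0.83) and CG32855 (0.82), and in guts to (0.94), CG6283 (0.93) and CG5028 (0.92). CG6283 was thus near MtnC in both tissues. MtnD in heads was most like deltaTry, a digestive trypsin (0.95), and MtnE most like CG10553 (0.96). MTF-1 in heads was most like Ms, par-1 and mop (0.94, 0.93 and 0.91). These values are descriptions over points that share libraries and groups.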

How the data were processed

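Per the labels, RNA was extracted with phenol and chloroform, and 3′ libraries were made with a V2 kit with unique dual indices for males and the QuantSeq kit for females. The build dm6 is named in the submitters' processing notes, while the aligner and counter are not given there. For males the authors deposited raw counts for 23996 features, of which 17830 genes entered library sizes and tests. The remaining features held 0.17% to 0.26% of reads. The deposited female tables are named CPM but hold log2 values with a constant floor, while the plan had assumed plain CPM. The floor was removed from the unlogged values to give CPM, and its steps gave whole reads within 0.1 read for 100% of 109346 head and 113900 gut values. All columns were matched to samples, with 0 unused. Positions come from the Ensembl annotation of BDGP6, whose coordinates are those of dm6.

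For male counts the test was edgeR's quasi-likelihood test (edgeR 4.0.16, TMM, filterByExpr, R 4.3.3), on 9741 genes in the genotype set and 9796 in the kay set. The SE of an edgeR value was taken as |log2 fold change| over the root of F. Female values were tested with limma 3.58.1 (trend) on log2(CPM + 1). It took the 9640 genes in heads and 9036 in guts that reached 1 CPM in 4 libraries or more. That scale understates the change of low genes. Each fit held all groups of its table. P-values were adjusted by Benjamini-Hochberg across every gene of a fit. The scripts were tested on simulated data.

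Alternatives were DESeq2 1.42.0, edgeR on recovered female reads, other scalings, no filter, a pseudocount of 0.25, a replicate block and leaving out each replicate. The members, gene lists and markers were chosen with earlier results of these data known. All 8 members are named in every table, other metal genes where called, and the genes most like some of the members. Replicates of a group always differed beyond sampling noise (lowest chi-square per degree of freedom 3.37). For P58S male head day 5 replicate 3 this value was 71.8 to 134 against the rest of its group. The other replicates there gave 8.53 to 16.9 among themselves. WT gut day 20 replicate 3 gave 63.5 to 116 against its group. Same-numbered replicates did not deviate together and were not treated as pairs. A count of 0 was given the limit of 3 reads.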

Additional observations from a re-analysis of the deposited data

Results flagged for a closer look

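Of 147 gene and group combinations with at least 20 reads, 14 had a library whose gap to the nearest other was above Dixon's critical value for 4 samples. Chance alone picks out about 1 group in 20. For MtnA the library was P58S male head day 5 replicate 3, at 1410 CPM against 719 to 757 CPM in the other 3.

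Several of these libraries were high in more than 1 metallothionein. Male WT day 20 replicate 3 held 27.2 CPM of MtnD against 2.55 to 4.69 CPM and 39.9 CPM of MtnE against 4.69 to 8.38 CPM, with an enterocyte marker sum of 2490 CPM. Male WT day 5 replicate 1 held 25.0 CPM of MtnD against 3.47 to 6.43 CPM, with a marker sum of 3170 CPM. Female WT head day 20 replicate 2 held 25.4 CPM of MtnC against 0 to 0.491 CPM and 14.4 CPM of MtnD against 0 to 1.19 CPM, with a marker sum of 3420 CPM. KayWT day 15 replicate 1 held 45.3 CPM of MtnC against 0.0982 to 3.89 CPM and 2.66 CPM of MtnD against 0 to 0.295 CPM. The part of gut marker RNA in these values was not tested beyond the relations given for the kay set.

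In the kay set MtnC was also high in KayKD day 5 replicate 2, at 19.7 CPM against 0 to 1.61 CPM, and MTF-1 in KayWT day 5 replicate 2, at 16.9 CPM against 10.2 to 11.4 CPM. ZnT35C was at 4.06 CPM in P58S male head day 15 replicate 2 against 0 to 0.408 CPM. In guts MtnC was at 486 CPM in WT day 20 replicate 3 against 196 to 232 CPM, and MtnD at 446 CPM in P58S day 20 replicate 3 against 168 to 180 CPM. ZnT35C was at 59.8 CPM in P58S gut day 5 replicate 2 against 33.8 to 35.1 CPM.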

How the results depend on the processing

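The number of the 8 genes called was recomputed for each comparison under every alternative. Of 147 settings other than leaving out 1 library, 138 kept the count and 9 moved it, and of 312 that left out 1 library, 293 kept it and 19 moved it. No direction reversed in a called result. For P58S against WT male heads the count at day 5 was 1 and went to 0 with a replicate block, and was 0 to 1 when 1 replicate was left out. At day 15 it was 0 and became 1 without a filter, and 0 to 1 with 1 replicate left out. At day 20 it was 1 and became 2 without a filter, 2 with DESeq2 and 0 with the replicate block, and 0 to 1 with 1 replicate left out. For P58S male ageing the count was 0 to 1 with 1 replicate left out at day 15. At day 20 it was 0 and became 1 without a filter and 1 with DESeq2, and 0 to 1 with 1 replicate left out. Leaving out 1 replicate also gave 0 to 1 for KayKD against driver at day 15, driver ageing, and WT ageing in female heads and in guts. WT ageing in female heads went from 0 to 1 with the shallow libraries left out, an alternative chosen after seeing the data. WT ageing in guts went from 0 to 1 with the replicate block (MtnA 1.03, adjusted p = 0.0142). The numbers only name replicates, since same-numbered libraries did not deviate together in all pairs of any comparison. The cause of these moves was not tested. Depth limits MtnB, MtnC and ZnT35C in heads, which rest on few reads, and the female WT heads at day 5.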
